A study of Mus musculus with 32 samples.

Results

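All 32 libraries of the study, RNA sequencing of cells sorted from mouse brain, were divided by the population named in the labels into 16 macrophage and 16 microglia libraries. The macrophage side held 8 libraries labelled Tumour Differentiated Macrophage and 8 labelled Tumour Undifferentiated Macrophage. The microglia side held 8 libraries of normal microglia and 8 of tumour microglia, and each population had equal weight. Normal microglia came from mice with no tumour and no labelled graft, 4 libraries from C57BL/6J mice (WT, CD45.2) and 4 from Pep3/CD45.1 mice. The 3 tumour populations came from recipient mice implanted in the brain with GL-261 cells, a murine glioma line grown in mice with an intact immune system. In each of them 4 libraries were labelled PEP-3 into WT, with a C57BL/6J recipient, and 4 WT into PEP-3, with a Pep3/CD45.1 recipient. The labels state that no treatment was applied. The grafted cells, the ages, the sorting gates and the number of animals behind a library are nowhere stated in the labels, so the p-values measure the spread between libraries, which may be partly technical. Both macrophage populations came from tumours, and no macrophages from tumour-free mice were analysed here.

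Microglia, the macrophages resident in brain tissue, are seeded in the embryo, renew themselves locally, depend on the receptor encoded by Csf1r, and keep a gene programme that involves the transcription factor Sall1 and signals of the cytokine TGF-beta. Tumour macrophages of blood origin descend from bone marrow monocytes, which enter tissue through chemokine receptors such as Ccr2 and adhesion molecules such as the integrin encoded by Itga4, and then change their genes as they mature. The comparison asked which genes separated both macrophage populations from both microglia populations, whether or not the microglia came from a tumour-bearing brain.

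The deposited values were signed scores with a mean of 0 for each gene, on a scale whose unit and logarithm base are not stated. A score therefore says how a library stood relative to the other libraries for that gene, and neither fold changes nor levels of different genes can be read from it. Differences below are fitted macrophage minus microglia differences in score units, with ± 1 standard error. In these bulk samples fewer cells of a type and less RNA per cell cannot be told apart. Sequencing depth is unknown. Libraries of the groups also differed as a whole, since the library medians ran from 0.00208 to 0.581 in macrophages and from -0.628 to 0.0532 in microglia. In 9 libraries, 4 of macrophages and 5 of microglia, under 50% of the library's own variation remained in the deposited table, so their values lean on those of other libraries.

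The leading pattern of the table separated the lineages. The leading principal component carried 36.5% of all variance, and membership of the macrophages or the microglia accounted for 81.3% of its spread. On it the microglia libraries reached up to -14.4 and the macrophage libraries began at 21.7, with no overlap. Differentiated and undifferentiated macrophages lay side by side, at medians of 70.5 and 64.6. At its ends the component followed the library medians. Tumour microglia library 27 had the lowest median (-0.628) and lay at -157, and differentiated macrophage library 31 had the highest (0.581) and lay at 126. Nearer the middle, differentiated macrophage library 15 (median 0.00208) lay at 34.6 and normal microglia library 18 (median 0.0532) at -20.0. How far the whole-library shift entered the component was not tested.

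By limma with Benjamini-Hochberg adjustment, 8388 of 17586 genes (47.7%) were higher and 1844 (10.5%) lower in macrophages at an adjusted p below 0.05. The median difference of all genes was 0.652, so changes are best read relative to that shift. With each library's median subtracted the median difference was 0.0803, and 4462 genes (25.4%) were higher and 3997 (22.7%) lower. A stricter rule asked that each of the 4 pairs, each macrophage population against each microglia population, be called in 1 direction. It held for 1981 genes (11.3%) higher and 406 (2.31%) lower, and with the medians subtracted for 442 (2.51%) and 1116 (6.35%). All 406 lower genes, but only 442 of the 1981 higher genes, met the rule on both scales. For 102 genes (0.580%) all 16 macrophage libraries lay above all 16 microglia libraries, and for 101 genes (0.574%) below. Without the 9 libraries named above, and with terms for the removed directions, which left 6 residual degrees of freedom in place of 15, limma called 1 gene higher (S100a6) and 1 lower (the gene listed as mKIAA1506), with 1568 and 617 at an unadjusted p below 0.05. Without the 9 libraries and without those terms, with 15 residual degrees of freedom, it called 6548 and 1376, of which 6433 and 1315 were among the genes above.

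The markers chosen for the lineages differed in the direction of their labels, with Sall1 and Tmem119 lower and Itga4 and Tgfbi higher in macrophages. Tmem119, a microglial surface protein, had lowest, median and highest scores of 1.44, 2.03 and 2.73 in normal microglia and 0.624, 0.855 and 1.40 in tumour microglia. Its scores were -2.17, -1.63 and -0.602 in differentiated and -2.12, -1.61 and -0.903 in undifferentiated macrophages. Every microglia library was thus above every macrophage library, and tumour microglia were also below normal microglia. The fitted difference was -3.16 ± 0.20 between lineages and -1.08 between tumour and normal microglia (adjusted p = 0.0137). Sall1, the zinc-finger repressor that maintains microglial identity, had scores of 0.867, 1.66 and 2.02 in normal and 0.287, 0.922 and 1.88 in tumour microglia. In macrophages it ran from -2.29 through -1.27 to -0.0148 in the differentiated and from -2.76 through -1.20 to -0.504 in the undifferentiated cells. The 16 and 16 libraries did not overlap, and the difference was -2.69 ± 0.27. For Sall1 the difference of -0.56 between tumour and normal microglia did not pass (adjusted p = 0.337).

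Tgfbi, a secreted matrix protein induced by TGF-beta, had the smallest adjusted p of all genes, 4.48e-12. Its scores were -2.55, -2.23 and -1.54 in normal microglia and -2.97, -2.44 and -1.24 in tumour microglia. In differentiated macrophages they were 0.788, 2.61 and 3.27, and in undifferentiated macrophages 1.43, 2.14 and 3.42. No library of one lineage reached the other, and the difference was 4.66 ± 0.23. The 2 microglia populations had a Tgfbi difference of -0.33 (adjusted p = 0.51). Itga4, the alpha 4 integrin subunit through which blood leukocytes adhere to vessel walls, separated the lineages less fully. It ran from -3.00 through -0.336 to 0.105 in normal and from -2.41 through -1.44 to -0.168 in tumour microglia. In macrophages it ran from -0.132 through 1.37 to 1.93 in the differentiated and from 0.288 through 0.558 to 2.24 in the undifferentiated cells. Differentiated macrophages and normal microglia therefore overlapped, although the difference was 2.22 ± 0.34 (limma adjusted p = 1.69e-05) and each of the 4 pairs was called. With the library medians subtracted Itga4 was not called in all 4 pairs.

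Normal microglia belonged to experiments 1 and 2 of the labels and all tumour populations to experiments 3 and 4, so experiment and graft cannot be told apart from the tumour within microglia. Within experiments 3 and 4 macrophages of one recipient strain stood beside tumour microglia of the other. The deposited means of macrophages minus tumour microglia there were -2.13 and -2.48 for Sall1, -2.41 and -2.45 for Tmem119, 2.58 and 2.26 for Itga4, and 4.42 and 4.72 for Tgfbi. For all 4 genes the libraries of the lineages did not overlap within either experiment.

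**Figure D1:**
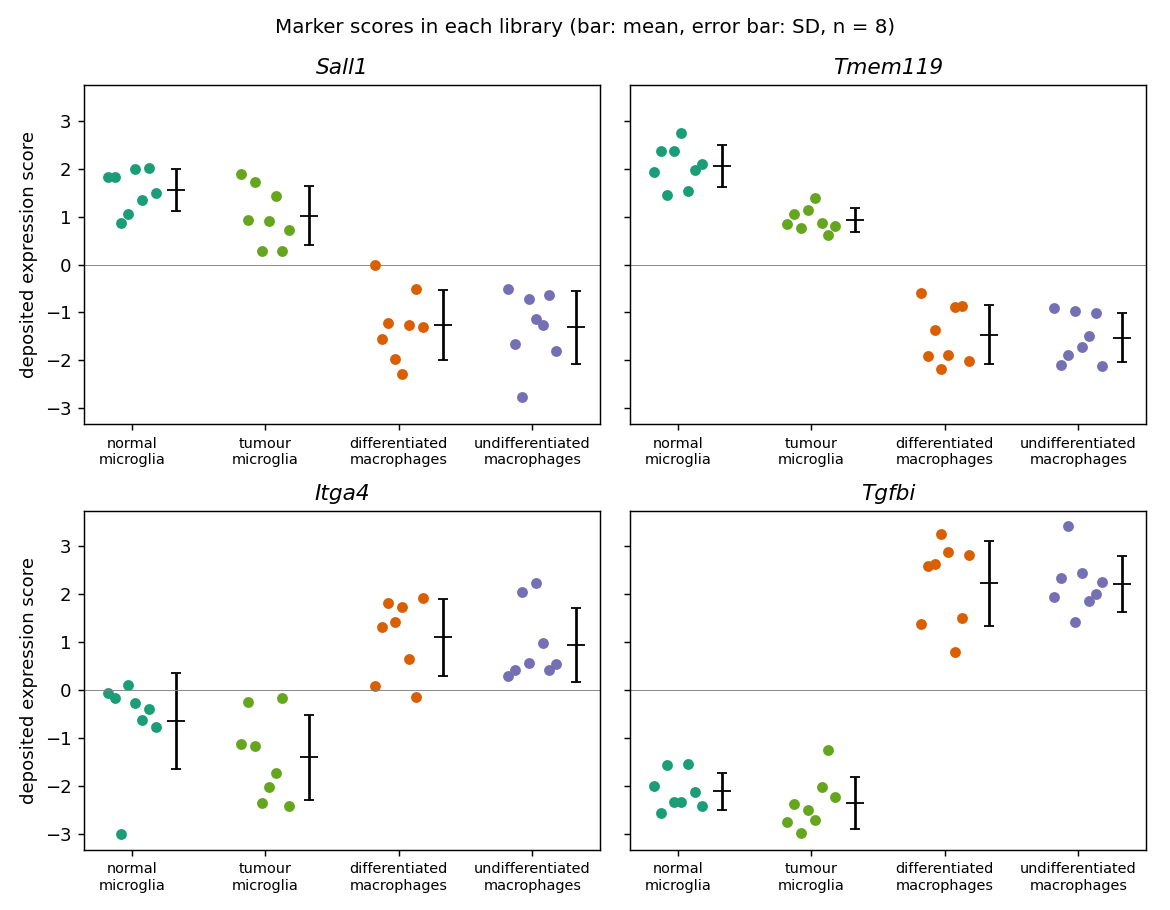
Deposited scores (vertical axis, score units) of Sall1, Tmem119, Itga4 and Tgfbi in the 4 populations, with 1 point per library, and the mean with SD of 8 libraries beside them. Sall1 and Tmem119 are positive in the microglia libraries and negative in all macrophage libraries, Tgfbi has the opposite pattern, and Itga4 overlaps between normal microglia (up to 0.105) and differentiated macrophages (from -0.132).

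Among genes called in all 4 pairs, the 10 with the largest difference in each direction were selected for size and lack of overlap between lineages, so both are given as a description. Acp5, the tartrate-resistant acid phosphatase of osteoclasts and activated macrophages, led with 5.14 ± 0.28. Its scores were -3.73, -2.76 and -1.91 in normal and -3.43, -1.82 and -1.35 in tumour microglia, against 1.94, 3.37 and 3.91 in differentiated and 0.655, 1.97 and 3.47 in undifferentiated macrophages. The lowest macrophage library for Acp5 was an undifferentiated one. The fatty acid binding protein Fabp5 differed by 4.84, and Pla2g7, a secreted phospholipase that degrades platelet-activating factor, by 4.73. AA467197, which is the gene also known as Nmes1, differed by 4.71. Nr1h3, which encodes the cholesterol-sensing nuclear receptor LXR alpha, differed by 4.36. Klra2, a lectin-like receptor of the Ly49 family whose close copies can share reads, differed by 4.35. Mefv, which encodes the inflammasome sensor pyrin, differed by 4.27. F10 and F7, the clotting factors X and VII, differed by 4.26 and 4.22. For none of these 9 genes was the difference between tumour and normal microglia called, the values lying between -0.99 for Mefv and 0.99 for Pla2g7.

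On the microglial side AK043564, listed by its accession-like name only, had the largest difference, -4.12 ± 0.38. Fcrls, a scavenger-like relative of the Fc receptors, differed by -3.92 ± 0.27. It was highest in normal microglia, at 2.03, 2.96 and 3.23, and lower in tumour microglia, at 0.0378, 0.898 and 2.13. In macrophages it lay between -2.98 and -0.862 in the differentiated and between -3.19 and -0.931 in the undifferentiated cells. Fcrls thus separated the lineages and also differed between the 2 microglia populations, by -1.83 (adjusted p = 0.0026). Siglech, a sialic acid binding lectin, differed by -3.87 ± 0.27, with scores of 1.36, 2.24 and 3.34 in normal and 0.537, 1.26 and 1.90 in tumour microglia. Its scores in macrophages were -3.21, -1.72 and -0.231 in the differentiated and -3.22, -1.70 and -1.05 in the undifferentiated cells. Bin1, a membrane-bending protein, differed by -3.89 and the fructose transporter Slc2a5 by -3.88. Ltc4s, the synthase of leukotriene C4, differed by -3.84 and Sparc, a secreted matricellular protein, by -3.73. The beta-crystallin Crybb1 differed by -3.62, Mlxipl, a glucose-responsive transcription factor, by -3.61, and V00821, named only as listed, by -3.54.

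**Figure D2:**
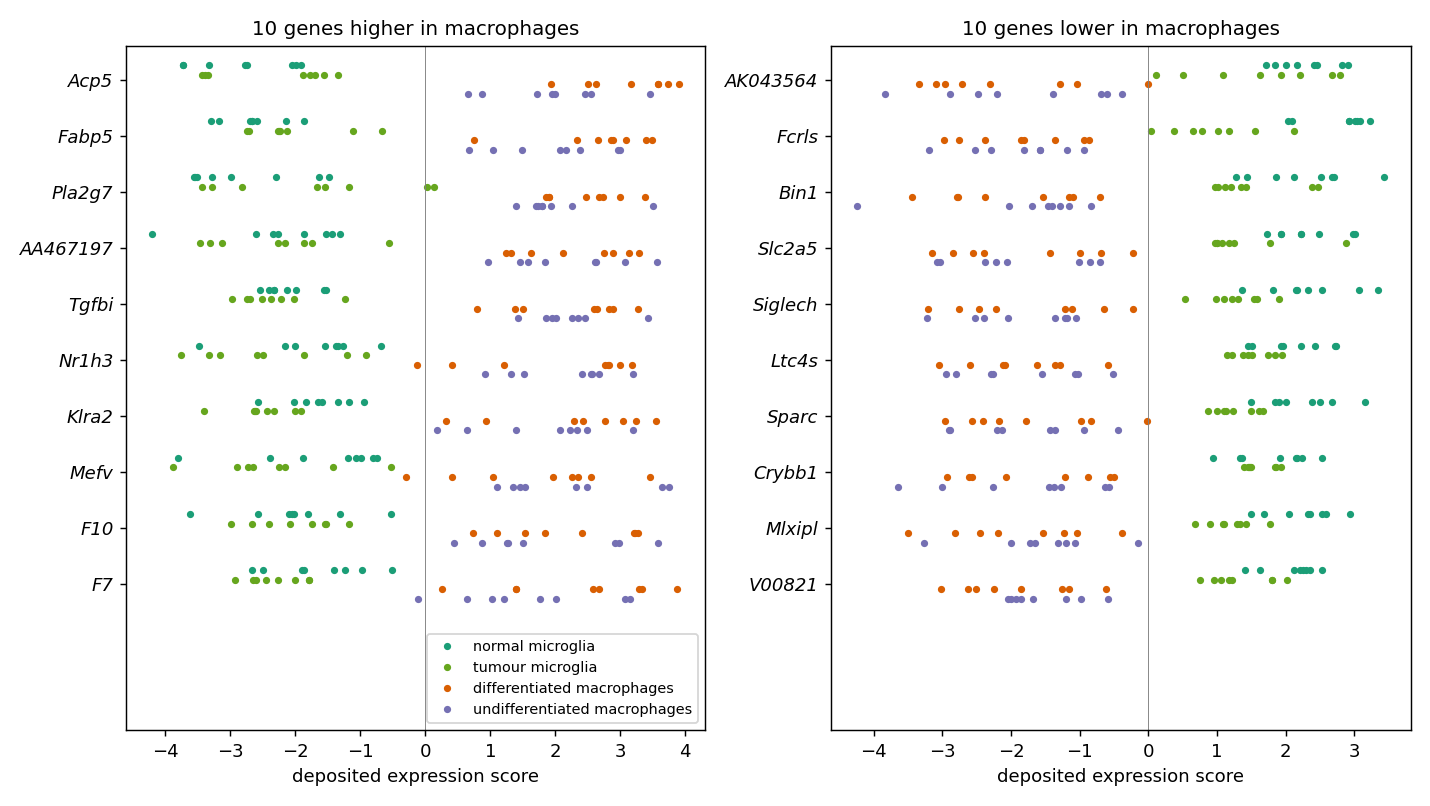
Deposited scores (horizontal axis, score units) of the 10 genes with the largest difference in each direction, with 1 point per library coloured by population. For each gene the microglia and macrophage points do not overlap, which was a condition for being shown, and tumour microglia of Fcrls (0.0378 to 2.13) lie closer to the macrophages than normal microglia (2.03 to 3.23).

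The stretches of promoter that follow are shown because they belong to genes with large differences in each direction and hold a match to a myeloid factor motif. Of 23 genes looked up (the 4 markers and the 20 above, Tgfbi being in both), 18 had promoters in RefSeq on build GRCm38.p6. Windows from 250 bases before to 50 bases after each start site were searched on both strands for PU.1 (GAGGAAGT), RUNX (TGTGGTT), MEF2 (CTAAAAATA), AP-1 (TGANTCA) and C/EBP (TTGCNNAA). The 250 bases before the start are printed 5′ to 3′ on the strand of the gene, with matches in capitals. The first is Fcrls, at chr3:87263525-87263774 on the minus strand, and the second Siglech, at chr7:55767934-55768183 on the plus strand. The third is AA467197, at chr2:122637637-122637886 on the plus strand, and the last Klra2, at chr6:131247363-131247612 on the minus strand.
Fcrls: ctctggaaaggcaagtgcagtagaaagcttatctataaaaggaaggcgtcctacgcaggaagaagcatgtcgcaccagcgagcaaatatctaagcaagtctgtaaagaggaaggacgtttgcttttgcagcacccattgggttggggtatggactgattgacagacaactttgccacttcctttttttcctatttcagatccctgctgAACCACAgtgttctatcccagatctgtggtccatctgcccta
Siglech: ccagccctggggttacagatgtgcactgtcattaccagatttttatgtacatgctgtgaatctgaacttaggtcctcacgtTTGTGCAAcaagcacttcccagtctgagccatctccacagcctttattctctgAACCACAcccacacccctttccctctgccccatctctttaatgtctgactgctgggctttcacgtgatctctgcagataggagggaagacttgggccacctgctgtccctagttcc
AA467197: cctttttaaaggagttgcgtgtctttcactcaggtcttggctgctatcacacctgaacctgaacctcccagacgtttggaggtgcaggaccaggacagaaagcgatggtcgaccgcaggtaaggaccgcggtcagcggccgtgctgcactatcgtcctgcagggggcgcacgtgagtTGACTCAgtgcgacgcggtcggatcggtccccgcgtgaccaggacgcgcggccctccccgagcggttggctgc
Klra2: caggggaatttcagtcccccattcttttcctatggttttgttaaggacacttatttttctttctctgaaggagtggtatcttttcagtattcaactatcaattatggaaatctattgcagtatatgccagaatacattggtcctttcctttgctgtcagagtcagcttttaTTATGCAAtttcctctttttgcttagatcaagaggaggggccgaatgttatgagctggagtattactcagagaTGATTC
Fcrls held a reverse-strand RUNX match at position -42, counted from the start site, and Siglech a C/EBP match at -169 and a RUNX match at -116. AA467197 held an AP-1 match at -73. Klra2 held a C/EBP match at -79 and an AP-1 match at -6, the last base of which lies beyond the printed stretch. Among the 10 matched genes higher in macrophages, 2 held AP-1, 1 held C/EBP and 0 held RUNX. Among the 8 lower genes, 2 held RUNX, 1 held C/EBP and 0 held AP-1. PU.1 and MEF2 matched none of these 18 genes. Of all 32851 windows, 3.2% held PU.1, 5.27% RUNX, 0.517% MEF2, 7.81% AP-1 and 10.8% C/EBP. A match is a description of the letters only.

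The gene lists here and below were chosen with earlier results of these data known, so their counts beside all genes are a description only. The wider list of microglial surface and secreted genes was lower as a block. Of 22 genes 21 were lower, and each of these 21 was lower in all 4 pairs. In 16 of them no macrophage library reached a microglia library. The shares of all genes were 10.5% lower, 2.31% lower in all 4 pairs and 0.574% lower without overlap. The list median was -3.10, beside 0.652 for all genes. Cx3cr1, the receptor of the neuronal chemokine fractalkine, differed by -2.98 ± 0.20, with medians of 1.72 in normal and 0.857 in tumour microglia against -1.38 and -1.43 in differentiated and undifferentiated macrophages. Cst3, the protease inhibitor cystatin C, differed by -3.27 ± 0.23, and P2ry12, the receptor with which microglia sense ADP, by -3.10 ± 0.28. The exception was Rapgef5, an exchange factor for Ras-like proteins, at -0.31 (adjusted p = 0.408). Fewer of these genes differed between the microglia populations than between the lineages. In tumour against normal microglia 6 of 22 were lower, a larger share than the 12% of all genes. No gene of the list was higher, beside 4.66% of all genes. Tumour, graft and experiment cannot be told apart in this difference. Those 6 were Fcrls, Tmem119, Cst3, Nav3, Ecscr and Rapgef5. P2ry13, a second nucleotide receptor, and Olfml3, a secreted matrix protein, differed by -0.08 and -0.05 between tumour and normal microglia. Their differences by lineage were -2.53 and -2.83.

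Transcription factors divided the same way, though less completely. Of 8 microglial factors 5 were lower, and 4 were lower in all 4 pairs, beside 10.5% and 2.31% of all genes. With library medians subtracted all 8 were lower, beside 22.7% of all genes, and the same number, 4, in all 4 pairs. Beside Sall1 these were Mef2c, a MADS-box factor linked to microglial restraint, at -2.15 ± 0.22, Lyl1, a basic helix-loop-helix factor, at -2.26 ± 0.31, and the Sall1 relative Sall3, at -1.98 ± 0.23. Mef2a differed by -1.24 ± 0.31 in the mean of the pairs, but was not called in all 4 pairs, nor in the mean without differentiated macrophage library 28 (-0.87, limma adjusted p = 0.113). Smad3, Tal1 and Ets1, at -0.16, -0.36 and -0.11, did not pass. Of 11 macrophage factors 10 were higher, and 4 were higher in all 4 pairs, beside 47.7% and 11.3% of all genes. Subtracting the library medians left 8 of the 11 higher, with 4 in all 4 pairs, beside 25.4% and 2.51% of all genes. The median of these factors was 1.60, and 1.03 with the library medians subtracted. Runx3, a Runt-family factor of leukocytes, had the largest difference, 4.47 ± 0.42. Its scores were -3.47, -2.40 and -0.74 in normal and -3.48, -1.99 and 0.656 in tumour microglia, against 0.94, 2.47 and 3.42 in differentiated and 0.371, 1.84 and 3.37 in undifferentiated macrophages. The highest tumour microglia library of Runx3 lay above the lowest undifferentiated macrophage library. The retinoic acid receptor Rara differed by 3.76 ± 0.36 and Bhlhe40, a repressor linked to macrophage growth, by 2.88 ± 0.40. Runx2 differed by 1.60 ± 0.29 and was not called in all 4 pairs. Klf4, a factor of monocyte development, was the member that did not pass, at 0.21 (adjusted p = 0.648).

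Genes common to both lineages were not equal either. Of 18 shared myeloid factors and receptors 12 were lower in macrophages, and 5 were lower in all 4 pairs, beside 10.5% and 2.31% of all genes. The list median was -0.861. With library medians subtracted 17 were lower, 10 of them in all 4 pairs, beside 22.7% and 6.35% of all genes. Csf1r, the receptor on which both lineages depend, had scores of 0.845, 1.41 and 1.80 in normal and 0.416, 0.719 and 1.06 in tumour microglia. It ran from -1.54 to -0.448 in differentiated and from -1.52 to -0.576 in undifferentiated macrophages, with no overlap, and the difference was -2.18 ± 0.19. The interferon regulatory factor Irf8 differed by -1.65 ± 0.20. The complement subunits C1qb and C1qa differed by -1.87 ± 0.23 and -1.41 ± 0.23, and Itgam, which encodes CD11b, by -1.28 ± 0.21. By contrast the pan-leukocyte gene Ptprc (CD45) had a difference of 0.13 (adjusted p = 0.71). Sfpi1, which encodes the myeloid master factor PU.1, had one of -0.27 (adjusted p = 0.399). Once library medians were subtracted, Sfpi1 was called lower (-0.84, limma adjusted p = 0.0171), and Ptprc was not called (-0.45, limma adjusted p = 0.166). Without differentiated macrophage library 28 the number of lower genes in this list was 6.

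Genes of entry into tissue were mostly higher in macrophages. Of 14 adhesion and recruitment genes 11 were higher, 6 of them in all 4 pairs, and the list median was 1.74. Of all genes 47.7% were higher and 11.3% higher in all 4 pairs. With library medians subtracted the list had 10 higher genes, 3 of them in all 4 pairs, beside 25.4% and 2.51% of all genes. Ccr2, the receptor through which monocytes leave the marrow and follow Ccl2, had scores of -3.03, -1.33 and -0.516 in normal and -3.39, -1.74 and -1.14 in tumour microglia. It ran from -0.228 through 1.24 to 3.08 in differentiated and from 1.27 through 1.93 to 4.05 in undifferentiated macrophages. The lineages did not overlap, and Ccr2 differed by 3.78 ± 0.33. The chemokine receptors Cxcr4 and Ccr1 differed by 3.47 ± 0.33 and 2.77 ± 0.35, and Cd44, which binds hyaluronan, by 2.67 ± 0.30. Against the list, Selplg, the selectin ligand PSGL-1, was lower in all 4 pairs (-2.75 ± 0.25) with no overlap.

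All 15 monocyte genes were higher, 11 of them in all 4 pairs, beside 47.7% and 11.3% of all genes, with a list median of 2.90. With library medians subtracted 14 were higher, 6 of them in all 4 pairs, beside 25.4% and 2.51% of all genes. S100a6, a small calcium-binding protein, differed by 4.72 ± 0.36, and the inhibitory lectin Clec12a by 3.84 ± 0.31. Ly6c2, the surface antigen of inflammatory monocytes, whose near copy Ly6c1 can share its reads, differed by 4.10 ± 0.29. Its medians were -1.94 in normal and -1.74 in tumour microglia, against 0.79 in the differentiated and 2.56 in the undifferentiated macrophages. Ly6c2 and S100a4, a motility-linked calcium-binding protein, were the 2 genes (0.0114%) called lower in differentiated than in undifferentiated macrophages, by -3.17 ± 0.48 and -3.10 ± 0.51 (adjusted p = 0.0172 and 0.032). No gene (0%) was called higher, and 491 genes of both directions had an unadjusted p below 0.05. S100a4 still differed between lineages, by 2.99 ± 0.30, and S100a10 by 2.44 ± 0.26. Within the monocyte list 4 of 15 genes were also higher in tumour than in normal microglia, beside 4.66% of all genes. Among them were Plac8, by 2.58, and Ifitm3, an interferon-induced membrane protein, by 2.92. Neither Plac8 nor Ifitm3 was called in all 4 pairs.

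All 10 matrix and coagulation genes were higher, 8 in all 4 pairs, with a median of 2.80. The shares of all genes were 47.7% and 11.3%. With library medians subtracted 9 were higher, 6 of them in all 4 pairs, beside 25.4% and 2.51% of all genes. After Tgfbi, F10 and F7, Emilin2, an elastic fibre glycoprotein, differed by 3.64 ± 0.35 and the intermediate filament Vim by 2.92 ± 0.29. Vcan, a matrix proteoglycan, and Tgm2, a protein-crosslinking transglutaminase, were higher in the mean, by 1.32 ± 0.23 and 1.21 ± 0.28, but not in all 4 pairs. Vcan was higher against tumour microglia, by 2.13 and 2.21 in the 2 macrophage populations, while against normal microglia its differences of 0.43 and 0.51 did not pass (adjusted p = 0.309 and 0.267). Of 13 macrophage maturation genes 12 were higher, 11 in all 4 pairs, with a median of 3.56, the highest of the lists. Subtracting the library medians left 12 higher and 9 in all 4 pairs. The same shares of all genes apply. Ms4a7, a membrane-spanning protein of tissue macrophages, differed by 3.95 ± 0.34, the lectin Lgals3 by 3.88 ± 0.35, and Il1rn, which blocks the interleukin 1 receptor, by 3.68 ± 0.34. Cd163, a haemoglobin scavenger receptor, did not pass, at 0.35 (adjusted p = 0.398).

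Genes of TGF-beta signalling were more often lower than higher. Of 12 genes 5 were lower and 1 higher, with 3 lower in all 4 pairs and a median of -0.433. The shares of all genes were 10.5% lower, 47.7% higher and 2.31% lower in all 4 pairs. With library medians subtracted 9 were lower and 1 higher, with a median of -1, beside 22.7% and 25.4% of all genes. The receptors Tgfbr1 and Tgfbr2 differed by -1.59 ± 0.20 and -1.51 ± 0.22 and the inhibitory Smad7 by -1.36 ± 0.23. The corepressor Ski was lower in the mean alone, by -1.09 ± 0.19. Itgb8, an integrin subunit that activates latent TGF-beta, was higher by 1.44 ± 0.26, and not in all 4 pairs. The transducers Smad2, Smad3 and Smad4 lay between -0.17 and 0.10 and did not pass.

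**Figure D3:**
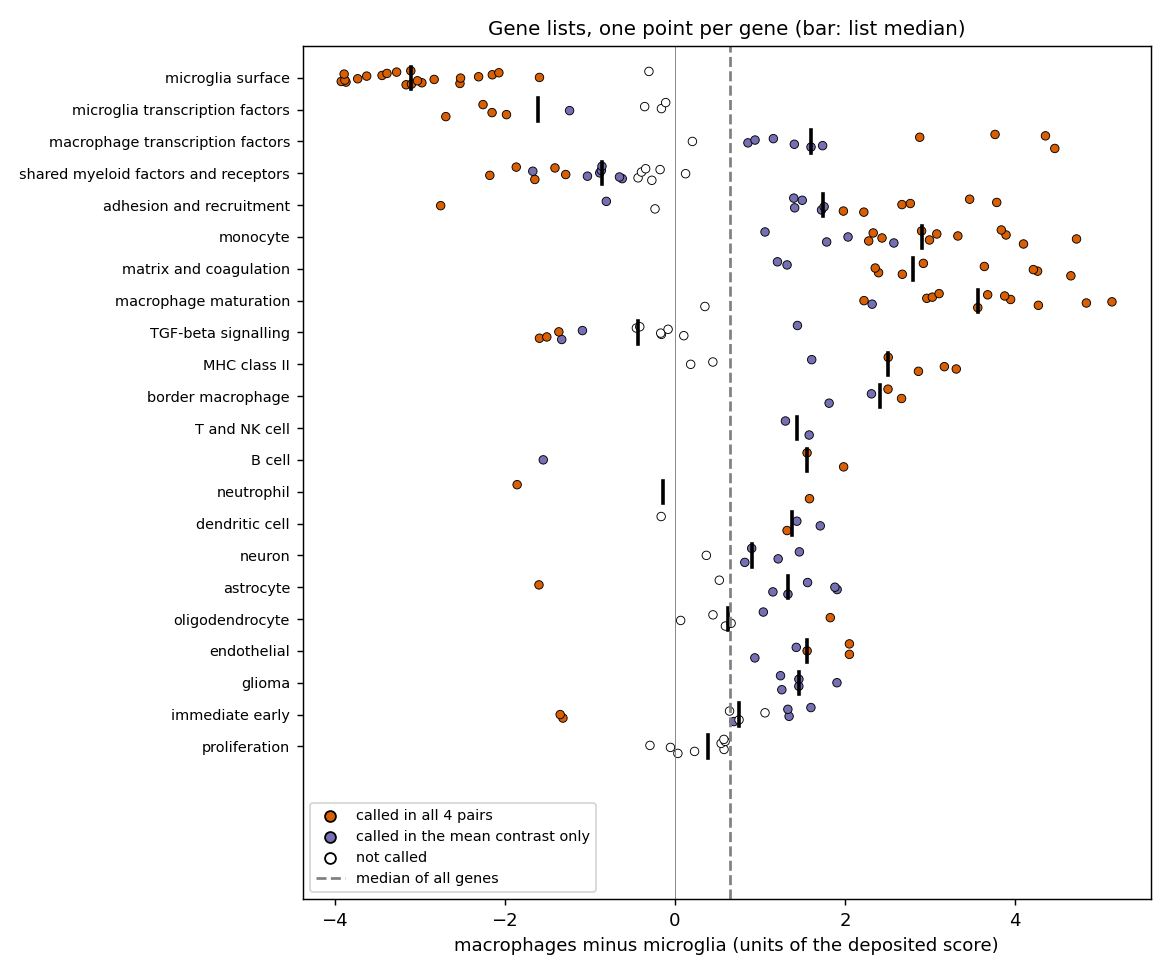
Fitted macrophage minus microglia differences (horizontal axis, score units) of the genes of each list, 1 point per gene, with the list median as a bar, the colour showing the call and the dashed line the median of all genes (0.652). Both microglial lists lie left of 0, and the monocyte, matrix and maturation lists lie to the right.

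Antigen presentation depended on which microglia were compared. Of 7 MHC class II genes 5 were higher, 4 in all 4 pairs, beside 47.7% and 11.3% of all genes, with a list median of 2.51. Reads of these polymorphic genes may be split between relatives. H2-Ab1, a class II beta chain, had scores of -4.02, -3.29 and -2.00 in normal microglia but -1.55, 0.325 and 0.923 in tumour microglia. In macrophages it ran from 1.06 through 1.59 to 2.64 in the differentiated and from 0.551 through 1.46 to 1.97 in the undifferentiated cells. Tumour microglia overlapped only undifferentiated macrophages, and normal microglia overlapped none. H2-Ab1 differed by 3.31 ± 0.27 between lineages and by 3.22 between tumour and normal microglia. Cd74, the invariant chain that guides class II molecules, differed by 1.61 ± 0.27 between lineages, but by 3.45 between microglia populations. Against tumour microglia its differences of 0.09 and -0.32 in differentiated and undifferentiated macrophages did not pass (adjusted p = 0.874 and 0.556). In tumour against normal microglia 5 of the 7 were higher, beside 4.66% of all genes. With library medians subtracted 5 of 7 were higher in the mean, but none in all 4 pairs, beside 25.4% and 2.51% of all genes.

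**Figure D4:**
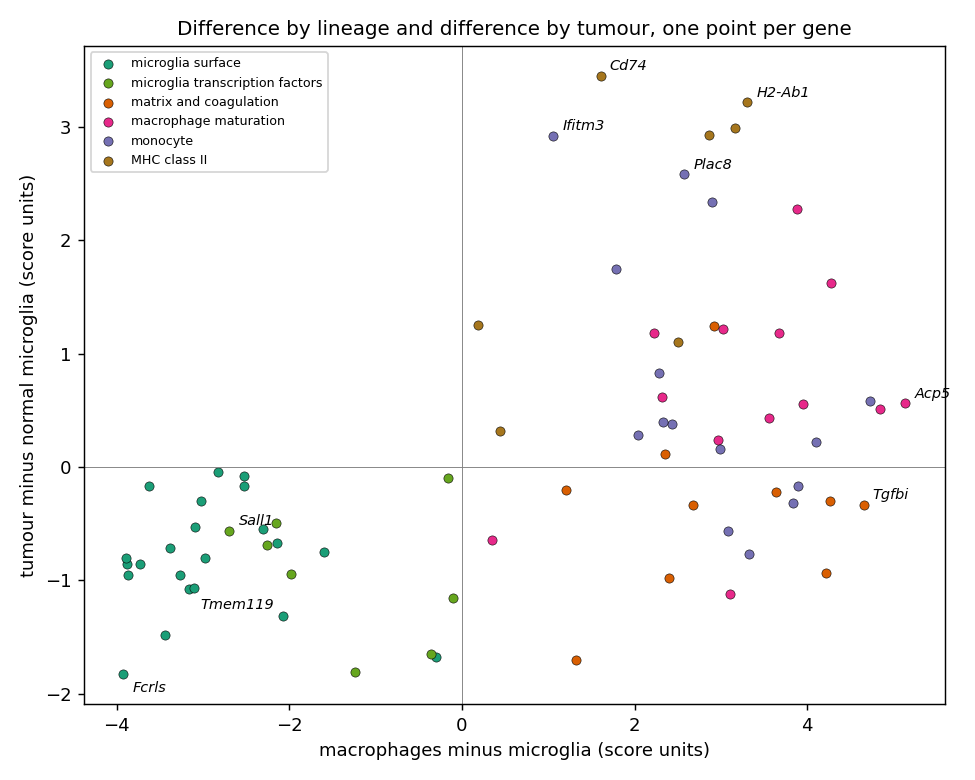
Fitted differences of 6 gene lists, 1 point per gene, with macrophages minus microglia on the horizontal and tumour minus normal microglia on the vertical axis (both in score units). Fcrls lies low on the vertical axis (-1.83) at the microglial end, Cd74 and H2-Ab1 lie high (3.45 and 3.22), and Acp5 and Tgfbi lie near 0 (0.56 and -0.33) at the macrophage end.

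Cd74 was 1 of 10 genes named because they were called between lineages and had the largest differences between tumour and normal microglia. Oas2, an antiviral oligoadenylate synthetase, was higher in macrophages in the mean, by 0.90 ± 0.25. Normal microglia were low, at -2.84, -2.13 and -1.58. Tumour microglia, at 0.708, 1.18 and 2.13, had a higher median than the macrophages, which ran from 0.239 through 0.63 to 1.46 and from -0.818 through 0.236 to 1.03. Among the 24 tumour libraries Oas2 was lower in macrophages, by -0.91 (limma adjusted p = 0.00564). The inhibitory receptor Cd300lf, at 2.17 ± 0.23, Mnda, an interferon-inducible nuclear protein, at 1.36 ± 0.34, and Gbp8, an interferon-induced GTPase, at 1.69 ± 0.38, were also higher in the mean. Differences between tumour and normal microglia were 3.66 for Cd300lf, 3.59 for Mnda and 3.36 for Gbp8. On the other side the chemokine Ccl4 differed by -2.63 ± 0.66 between lineages. It ran from -3.01 through -0.407 to 0.616 in normal and from 1.63 through 3.27 to 5.59 in tumour microglia. Macrophages, from -3.49 through -0.679 to 2.76 and from -4.27 through -1.59 to 0.469, spanned the whole range of normal microglia. The cystatin Cst7 and the chemokine Ccl12 were also lower in macrophages in the mean and higher in tumour than in normal microglia, by 2.71 and 2.66, with lineage differences of -1.36 ± 0.28 and -0.89 ± 0.27. The small nucleolar RNA gene Snora81 and the gene listed as calcium_channel were instead highest in normal microglia, with lineage differences of -2.08 ± 0.36 and -1.53 ± 0.42. Of these 10 genes none was called in all 4 pairs. Leaving out 1 library ended several of these mean calls (limma, adjusted p from 0.0528 to 0.66 over all such cases). Oas2 was at 0.59, 0.43 and 0.63 without normal microglia library 10, differentiated macrophage library 28 and undifferentiated macrophage library 8. Mnda was at 0.83 without differentiated macrophage library 31, and Gbp8 at 1.32 and 1.00 without libraries 28 and 31 of that population. Ccl4 was at -1.86 without differentiated macrophage library 31 and -1.29 without undifferentiated macrophage library 29. The gene listed as calcium_channel was at -1.11, -0.29 and -1.23 without normal microglia library 10 and differentiated macrophage libraries 28 and 31. Ccl12 was at -0.73 without normal microglia library 10, and at -0.84 and -0.73 without undifferentiated macrophage libraries 29 and 8.

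Markers of other cell types are given beside these results, and their part in them was not tested. Their counts stand against the 47.7% of all genes that were higher and the median difference of 0.652. All 4 measured of 7 border macrophage markers were higher, 2 in all 4 pairs, and with library medians subtracted 4 were higher but none in all 4 pairs. Their mean score per library ran from -2.17 to -0.354 in normal and from -1.73 to 0.0178 in tumour microglia, and from 0.529 to 1.77 in differentiated and 0.345 to 1.87 in undifferentiated macrophages. Pf4, platelet factor 4, differed by 2.67 ± 0.39 and the lectin Clec10a by 2.51 ± 0.39. All 5 measured of 6 endothelial markers were higher, with a mean score from -1.69 to -0.168 in the microglia and from 0.00998 to 1.68 in the macrophages, and Kdr, a vascular growth factor receptor, differed by 1.55 ± 0.20 with no overlap. All 5 measured of 6 glioma markers, 4 of 5 neuronal, 5 of 7 astrocyte, 2 of 6 oligodendrocyte, 3 of 4 dendritic cell and both measured T and NK cell markers were higher. The oligodendrocyte count was below the share of all genes, with a list median of 0.628. Their means over a list ranged from -2.13 to 0.619 in the microglia and from -0.49 to 1.51 in the macrophages, and scores give no level, so none can be said to be at 0. With library medians subtracted 1 neuronal, 3 astrocyte and 1 oligodendrocyte marker were higher. On that scale 4 of 5 glioma, 4 of 5 endothelial, 3 of 4 dendritic cell and 2 of 2 T and NK cell markers were higher. Of all genes 25.4% were higher on that scale. Without differentiated macrophage library 28 the counts were 1 neuronal and 3 astrocyte markers, and without library 31 of that population 1 neuronal, 1 oligodendrocyte, 3 endothelial and 1 T and NK cell marker. Without normal microglia library 10 or undifferentiated macrophage library 29 the neuronal count was 2, and without normal microglia library 26 or undifferentiated macrophage library 8 the oligodendrocyte count was 1. Members against their lists were the glutamate transporter Slc1a3, at -1.60 ± 0.25, and the B cell receptor subunit Cd79b, at -1.55 ± 0.38. The 2 measured neutrophil markers went opposite ways. The granulocyte growth factor receptor Csf3r differed by -1.86 ± 0.23 and the chemokine receptor Cxcr2 by 1.58 ± 0.30. The Cd79b call was lost without differentiated macrophage library 28 (-1.15, adjusted p = 0.0925) or 31 (-1.20, adjusted p = 0.0594), by limma. Of 3 B cell markers 2 and of 2 neutrophil markers 1 were higher in macrophages, and the means over both lists overlapped between lineages.

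Against the mean of both microglia populations, dissociation-sensitive and cell cycle genes showed no common lineage direction. Of 9 immediate early genes 4 were higher, near the 47.7% of all genes. With library medians subtracted 2 were higher, beside 25.4% of all genes. Jun and Egr1 were lower in all 4 pairs, by -1.32 ± 0.22 and -1.35 ± 0.27. The phosphatase Dusp1 was higher in the mean, by 1.60 ± 0.25. Atf3, at 1.33 ± 0.35, was not called without undifferentiated macrophage library 8 (0.94, limma adjusted p = 0.0604). Of 8 proliferation genes limma called 0 between lineages, with 1 at an unadjusted p below 0.05. Between microglia populations 6 of them were higher in the tumour microglia, beside 4.66% of all genes. Fitted on the 24 tumour libraries alone, all 8 were lower in sign in macrophages, with a median of -0.515. Of these 8, 1 was called lower, beside 1562 of 17586 genes. In the fit of all 32 libraries Birc5, Ccnb1 and Rrm2 lay at 0.05, 0.07 and 0.21 in differentiated macrophages against tumour microglia.

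The lineage difference itself differed between WT and Pep3 recipients for 1 gene in each direction (0.00569% each), Mmrn1 and the gene listed as mKIAA0897, and 1469 genes had an unadjusted p below 0.05. Mmrn1, which encodes the platelet and endothelial protein multimerin, had an interaction of 6.58 ± 0.87 (limma adjusted p = 0.000921), and mKIAA0897 one of -7.11 ± 0.85 (limma adjusted p = 0.000334). The means of the deposited scores gave smaller interactions, 2.90 for Mmrn1 and -2.93 for mKIAA0897. Within each strain macrophages and microglia came from different experiments, so strain and experiment cannot be told apart in this interaction.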

How the data were processed

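RNA was sequenced from 32 libraries of sorted cells in 4 populations of 8. The authors deposited 1 table of signed scores for 17586 genes, and FastQC, STAR 2.5.0a, RSEM 1.3.0 and the mouse build mm9 are named per the submitters' processing notes. How estimated reads became scores, with what scale and depth, is not given in the sources used here. Deposited scores have a mean of 0 for each gene, also within each recipient strain, and 11 directions among libraries carry no variation, so depth gives no interval. The 2 most similar libraries correlated at 0.889 across genes and were kept as separate.

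Scores were fitted with limma 3.58.1 in R 4.3.3 (robust empirical Bayes, 15 residual degrees of freedom), with a mean per population and recipient strain and terms for the removed directions, which left 96.3% of the lineage contrast. Tests were two-sided, with Benjamini-Hochberg adjustment over all 17586 genes and a threshold of 0.05. No filter was applied.

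Named genes were the 4 markers, the 10 largest non-overlapping lineage genes per direction, up to 5 members of each list by adjusted p with members against their list, and up to 5 genes per direction by tumour difference. A few others were named after their values were seen. The members and lists were chosen with earlier results of these data known. Promoters came from RefSeq on GRCm38.p6. Some results for single genes are not reported here.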

Additional observations from a re-analysis of the deposited data

Results flagged for a closer look

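Among 92 groups of 8 libraries checked in the 23 marker and leading genes, 6 held 1 library far from the other 7, and chance gives about 1 in 20. For Itga4, normal microglia library 17 scored -3.00, where the next library scored -0.761. For Fabp5, differentiated macrophage library 23 scored 0.75, below the next at 2.34. For Pla2g7, undifferentiated macrophage library 21 scored 3.50, above the next at 2.26. For AA467197, normal microglia library 2 scored -4.20, below the next at -2.6. For Bin1, undifferentiated macrophage library 32 scored -4.24, below the next at -2.02. For Slc2a5, tumour microglia library 3 scored 2.87, above the next at 1.78.

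The lineage difference differed between WT and Pep3 recipients for 2 genes by the interaction term of limma, in which recipient strain and experiment cannot be told apart. Mmrn1 had an interaction of 6.579 ± 0.868 (adjusted p = 0.000921), while the means of the deposited scores gave 2.90. Its medians in WT recipients were -0.944 in normal and -2.51 in tumour microglia, with 2.07 in the differentiated and 1.52 in the undifferentiated macrophages. In Pep3 recipients they were 0.417, -1.83, 0.358 and 0.20 in the same order. The gene listed as mKIAA0897 had an interaction of -7.108 ± 0.85 (adjusted p = 0.000334), while the means of the deposited scores gave -2.93. Its medians were 1.3, 1.08, -0.225 and -1.25 in WT and 0.251, -0.553, 1.43 and 0.211 in Pep3 recipients, in that order.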

How the results depend on the processing

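Each library carries its own number from 1 to 32, none shared between groups, but each of 4 runs of 8 numbers holds 1 library per population and recipient strain. The labels do not say that a run is a batch. With the runs as a replicate block, chosen after seeing the data, 8385 genes were higher and 1878 lower, with 1586 and 368 lineage genes. In that fit 81 of 81 named genes kept their call. These 81 leave out the lists of other cell types and of proliferation, except for Slc1a3, Cd79b and Csf3r. Deviations from group means correlated by -0.00574 on average within a run, from -0.647 to 0.624, and 12 of 32 libraries correlated best with their own run. The 8388 higher and 1844 lower genes stayed within 1.5 times their counts with no terms for the removed directions, library weights, population means only, ordinary empirical Bayes, the 24 tumour libraries alone and without the genes of lowest SD. They did not with library medians subtracted (4462 and 3997) or without the 9 libraries that kept under 50% of their variation (1 and 1, with 6 residual degrees of freedom). With C57BL/6J or Pep3/CD45.1 recipients alone limma called 0 and 0 genes, with 3 residual degrees of freedom, although 1631 and 603, and 1941 and 639, had an unadjusted p below 0.05. The lineage genes, 1981 higher and 406 lower, became 3271 and 680 with no terms, and 442 and 1116 with medians subtracted. They became 0 and 0 without the 9 libraries or within either strain, and 700 higher with library weights. In the tumour libraries, where only 2 pairs exist, they were 5947 and 717. Without the 9 libraries and without terms, a fit added after seeing the data, they were 1045 and 295. In that fit 21 microglial surface genes, 5 microglial factors, 11 shared and 5 TGF-beta genes were lower. The higher counts were 8 macrophage factors, 11 adhesion, 15 monocyte, 10 matrix, 12 maturation, 1 TGF-beta and 5 MHC class II genes. In the planned fit without the 9 libraries, with terms, S100a6 was the only list member called, and 79 of the 81 named genes lost their call. Signs in the planned fit were lower for 21 of 22 microglial surface genes, 4 of 8 microglial factors and 7 of 12 TGF-beta genes. In C57BL/6J or Pep3/CD45.1 recipients alone 79 and 80 of the 81 named genes lost their call.

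Leaving out 1 library gave 4981 (without differentiated macrophage library 31) to 8434 higher genes and 985 (without differentiated macrophage library 28) to 1868 lower genes. Lineage genes ranged from 592 to 2330 higher and from 183 to 415 lower. The higher lineage count was 1292, 656, 736 and 616 without normal microglia libraries 1, 2, 10 and 26, 592 without differentiated macrophage library 31, and 1048 and 1232 without undifferentiated macrophage libraries 29 and 8. The lower lineage count was 242 without normal microglia library 10 and 183 without differentiated macrophage library 28.

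Among the 81 named genes above, the following changed direction, and the cause was not tested. Mef2a was at 0.5516 without the 9 libraries. In C57BL/6J recipients alone Runx2 was at -0.2164 and Ccl12 at 0.6052, and in Pep3/CD45.1 recipients alone Gbp8 was at -1.696. Among the tumour libraries Cd74 was at -0.2522, Oas2 at -0.9122 and Mnda at -0.1043. Within experiment 3 Oas2 was at -0.7289 and Mnda at -0.3374, and within experiment 4 Cd74 was at -0.5467, Oas2 at -0.9387, Mnda at -0.4336 and Gbp8 at -0.1002. With medians subtracted 79 of these 81 genes kept their call, and Atf3 (0.76, adjusted p = 0.0848) and Oas2 (0.32, adjusted p = 0.294) lost it. Named markers of other cell types, outside the 81, went both ways. Among them Gad1 (0.33, limma adjusted p = 0.302) and Cdh5 (0.37, limma adjusted p = 0.354) lost the call, while Kdr (0.98, limma adjusted p = 2e-04) kept it. Without depth, no sampling error can be given for any score.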

Other observations

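Other genes called in all 4 pairs with no overlap between lineages, chosen after their values were seen, included further surface receptors and a lysosomal protease on the microglial side. The lipid-sensing receptor Trem2 differed by -2.35 ± 0.20, the tetraspanins Cd81 and Cd37 by -2.68 ± 0.27 and -2.76 ± 0.27, and the adhesion receptor Gpr56 by -3.09 ± 0.21. The lysosomal protease Ctsf differed by -3.14 ± 0.25 and Lag3, an inhibitory immune receptor, by -2.37 ± 0.27. On the macrophage side were the complement regulator properdin (Cfp), at 4.01 ± 0.37, and the adhesion receptor Cd97, at 3.74 ± 0.36. The NAD-consuming enzyme Cd38 differed by 3.29 ± 0.33, the lipid droplet protein Plin2 by 3.19 ± 0.29, the scavenger receptor Stab2 by 2.70 ± 0.29 and the aminopeptidase Anpep by 2.71 ± 0.26. The ribosomal protein genes Rpl7a and Rps18, at 1.48 ± 0.21 and 1.3 ± 0.21, were also among them, but were among the 20 of 101 higher genes that lost the call in all 4 pairs when library medians were subtracted.

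Some of the non-overlapping genes are direct neighbours in the RefSeq gene order. Of 202 such genes 177 had a position among 13813 genes of the table, and 5 pairs were adjacent, each with both members in 1 direction. The pairs were P2ry13 with P2ry12 (-2.53 and -3.10), Cryba4 with Crybb1 (-3.33 and -3.62), Tmem119 with Selplg (-3.16 and -2.75), Siglech with Tubgcp5 (-3.87 and -1.98) and F7 with F10 (4.22 and 4.26).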
